A study of Mus musculus with 15 samples.

Results

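Replication-dependent histone genes were examined in whole mouse lung. They were taken as every row whose symbol begins with Hist1h, Hist2h, Hist3h or Hist4h and whose expected counts summed to at least 30 over all 15 libraries. Of 24054 gene symbols, 68 carry these prefixes and 65 met the sum. These are 6 H1, 17 H2A, 18 H2B, 12 H3 and 12 H4 genes, with 51 in the Hist1 group, 10 in Hist2, 3 in Hist3 and 1 in Hist4. Just inside the sum lay Hist1h1t, a testis H1, at 59.0 expected counts, and just outside lay Hist1h2ba at 15.7. Hist1h2aa and Hist1h4n had 0. Hist3h2bb-ps is annotated as a processed pseudogene and was kept by the rule.

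The lungs came from 15 female wild-type Balb mice in 3 groups of 5, and each library is 1 animal. Saline lungs came from sham-sensitised mice that received an antibody of the control isotype. OVA lungs came from mice given that control antibody after intraperitoneal sensitisation and nebulised challenge with ovalbumin. The anti-IL-4Ra group received ovalbumin and 30 mg/kg of a monoclonal antibody to mouse IL-4Ra, the receptor subunit shared by IL-4 and IL-13. No age, dosing schedule or collection time is given by the labels. Values are RSEM expected counts, given below as CPM, expected counts scaled by the TMM-adjusted library total, and library totals ran from 10042800 (OVA replicate 5) to 27570700 (saline replicate 1). Surfactant genes of the alveolar epithelium, which mark lung, were abundant, with Sftpc at a mean of 7696 CPM and Sftpb at 2343 CPM in saline libraries.

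Histones H2A, H2B, H3 and H4 form the protein core around which DNA is wrapped, and H1 binds the DNA between cores. The genes studied here are transcribed mainly in S phase, when new DNA has to be packaged, and most have no introns. Their mRNAs usually end in a short stem-loop in place of a poly(A) tail, and the stem-loop binding protein SLBP holds this stem-loop during processing, translation and decay. Some of these genes are also known to make polyadenylated transcripts, among them Hist1h1c, Hist1h2bc, Hist1h2be, Hist2h2be and Hist3h2a. RNA selection therefore bears on their counts, and the labels' protocols name both depletion of ribosomal RNA and purification on oligo-dT beads.

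The stem-loop is the feature that sets these mRNAs apart, so it was searched for in the GENCODE M21 transcript models (GRCm38, C57BL/6J reference), as a stem of 6 exactly paired bases that begins with GG, around a loop of 4 bases that begins with TTT, within 100 bases of the stop codon. It was found in 42 of the 65 members, beginning 21 to 58 bases after the stop codon (median 31.0). Below it is shown in capitals with 5 flanking bases on each side, as DNA letters. The first 4 genes were called higher with OVA and the last 4 were not.
Hist1h1d: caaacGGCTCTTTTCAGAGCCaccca
Hist2h3c2: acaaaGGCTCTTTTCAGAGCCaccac
Hist1h2bb: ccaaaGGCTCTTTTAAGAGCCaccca
Hist1h4b: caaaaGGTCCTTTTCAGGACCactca
Hist1h2be: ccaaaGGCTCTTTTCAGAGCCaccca
Hist2h2aa1: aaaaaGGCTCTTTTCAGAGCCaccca
Hist1h4d: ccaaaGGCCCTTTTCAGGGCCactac
Hist4h4: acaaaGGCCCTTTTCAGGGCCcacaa

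The most frequent form, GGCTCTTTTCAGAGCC, stood in 25 of the 42 models and in genes of every class but H4. The form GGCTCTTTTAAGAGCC stood in 6 and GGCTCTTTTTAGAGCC in 1, an H2A gene. Every H4 stem differed from these, with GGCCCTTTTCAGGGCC in 6, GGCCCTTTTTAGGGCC in 2 and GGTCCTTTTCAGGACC in 2. A stem-loop was found in 29 of the 49 members called higher with OVA and in 11 of the 14 not called. Among the other members, 8 have a model of at least 40 bases after the stop codon without these letters, and 15 have a shorter one or no coding model. Hist1h1b, the member with the largest change, has a model that ends at the stop codon.

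The members are close copies of each other, which limits how far single rows can be read. In 52 of the 65, at least 50% of the 50-base windows of the coding sequence also occur in transcripts of another gene, and in 12 all of them do. RSEM divides reads that match several genes by an estimate, and 88.1% of the members' values were not whole numbers (further than 0.005 from one), against 24.2% of all values above 0 in the table. Hist1h2ao and Hist1h2ap share every coding window, as do Hist1h2bq and Hist1h2br. Every coding window of Hist2h2aa1, Hist2h2aa2, Hist2h3c1 and Hist2h3c2 also occurs in Gm20634, a gene outside the members. Hist2h3c1 was at 0 in 12 of 15 libraries and reached 8.46 CPM in OVA replicate 1. Hist1h4n, outside the members at 0, shares every coding window with the member Hist1h4m, so its 0 does not show absence of expression. Hist3h2a shares its coding sequence with an overlapping model of Trim17. At the other end, Hist1h1a, Hist1h1b, Hist1h1t, Hist2h2be and Hist4h4 share no coding window, and Hist1h1a, Hist1h1t and Hist4h4 had whole values in all 15 libraries. When copies joined by at least 80% shared windows were summed into single rows, 40 of 52 rows were called higher with OVA. Without merging, 19.3% of all genes were called higher.

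Most histone genes were higher in OVA lungs than in saline lungs, and none was called lower. The summed level of all members was 911, 963, 1388, 1378 and 1061 CPM in saline replicates 1 to 5. With OVA it was 3042, 5376, 2087, 1846 and 1451 CPM. In the anti-IL-4Ra group the sum was 2138, 2476, 2515, 4321 and 1591 CPM. Each of the 10 ovalbumin libraries lay above the highest saline library, although OVA replicate 5 exceeded it by little. The spread was wide among ovalbumin lungs, at 2760 ± 1575 CPM with OVA and 2608 ± 1026 CPM with anti-IL-4Ra against 1140 ± 228 CPM with saline (mean ± SD, n = 5 each). In whole lung, fewer cells of a type and less RNA per cell cannot be told apart.

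**Figure D1:**
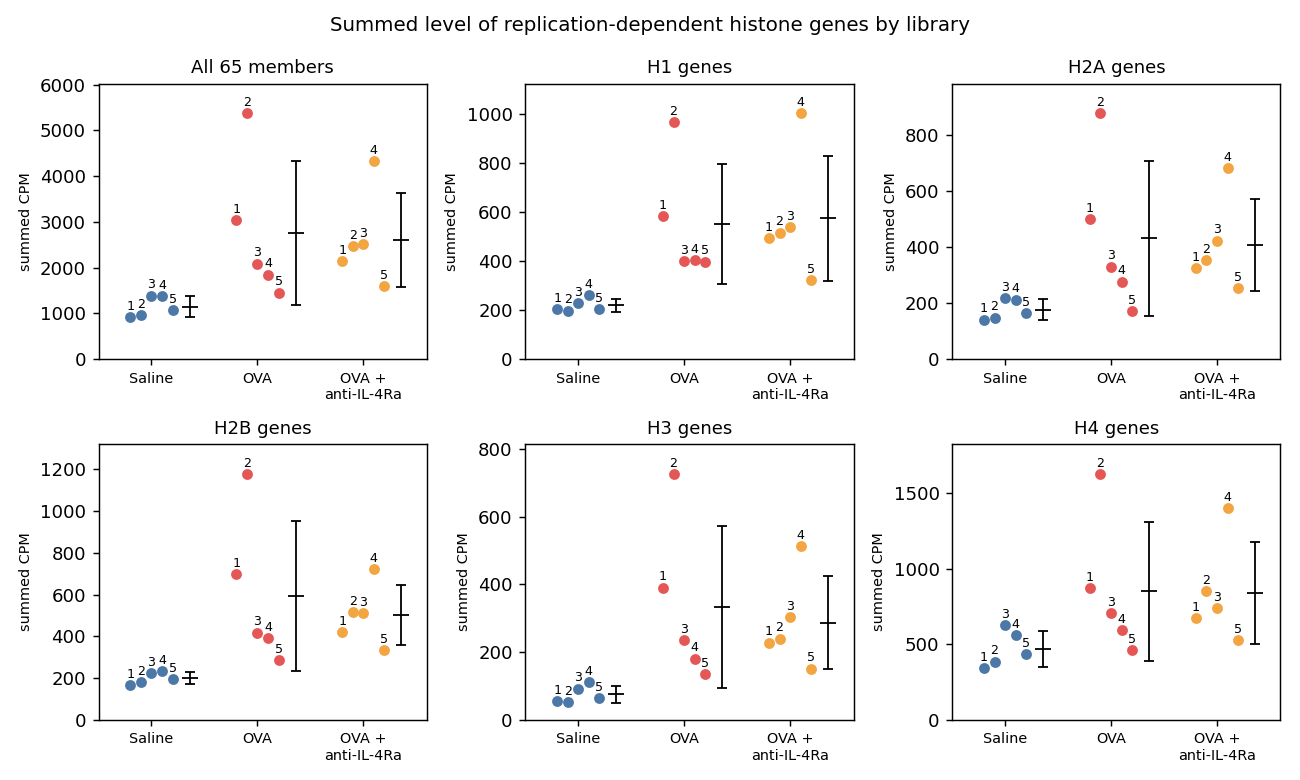
Summed CPM of all 65 histone genes and of each class (vertical axes, linear from 0) in the 3 groups (horizontal axes). Points are libraries numbered by replicate, and the black mark is the mean ± SD of 5 libraries. OVA replicate 2 (5376 CPM over all members) and anti-IL-4Ra replicate 4 (4321 CPM) stand highest, and saline libraries lie between 911 and 1388 CPM.

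Of the 63 members that passed the filter on low counts, 49 were called higher with OVA at an adjusted p under 0.05 in edgeR's quasi-likelihood test. Over all 15905 genes tested, 19.3% were called higher, 17.8% lower and 37.1% in either direction. By at least 2-fold, 47 members were called, against 9.35% of all genes. The median log2 change of the tested members was 2.11, against 0.02 over all genes, with a range from -0.33 (Hist2h2aa2) to 3.41 (Hist1h1b). An unadjusted p under 0.05 was found in 52 members, against 46.7% of all genes. In 36 members the OVA libraries all lay above the saline libraries, against 12.1% of all genes, and in 0 all below, against 14.5%. Hist1h1t and Hist2h3c1 were not tested because of low counts. With the share of Rn45s, the ribosomal RNA precursor, as a covariate, 5 of the 49 calls were left (Hist1h1a, Hist1h1b, Hist1h1d, Hist1h2bb and Hist1h2bh). All genes called in either direction fell alongside, from 5898 to 752, or 4.73% of all genes. Changes of single genes are given as log2 fold change ± SE.

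**Figure D2:**
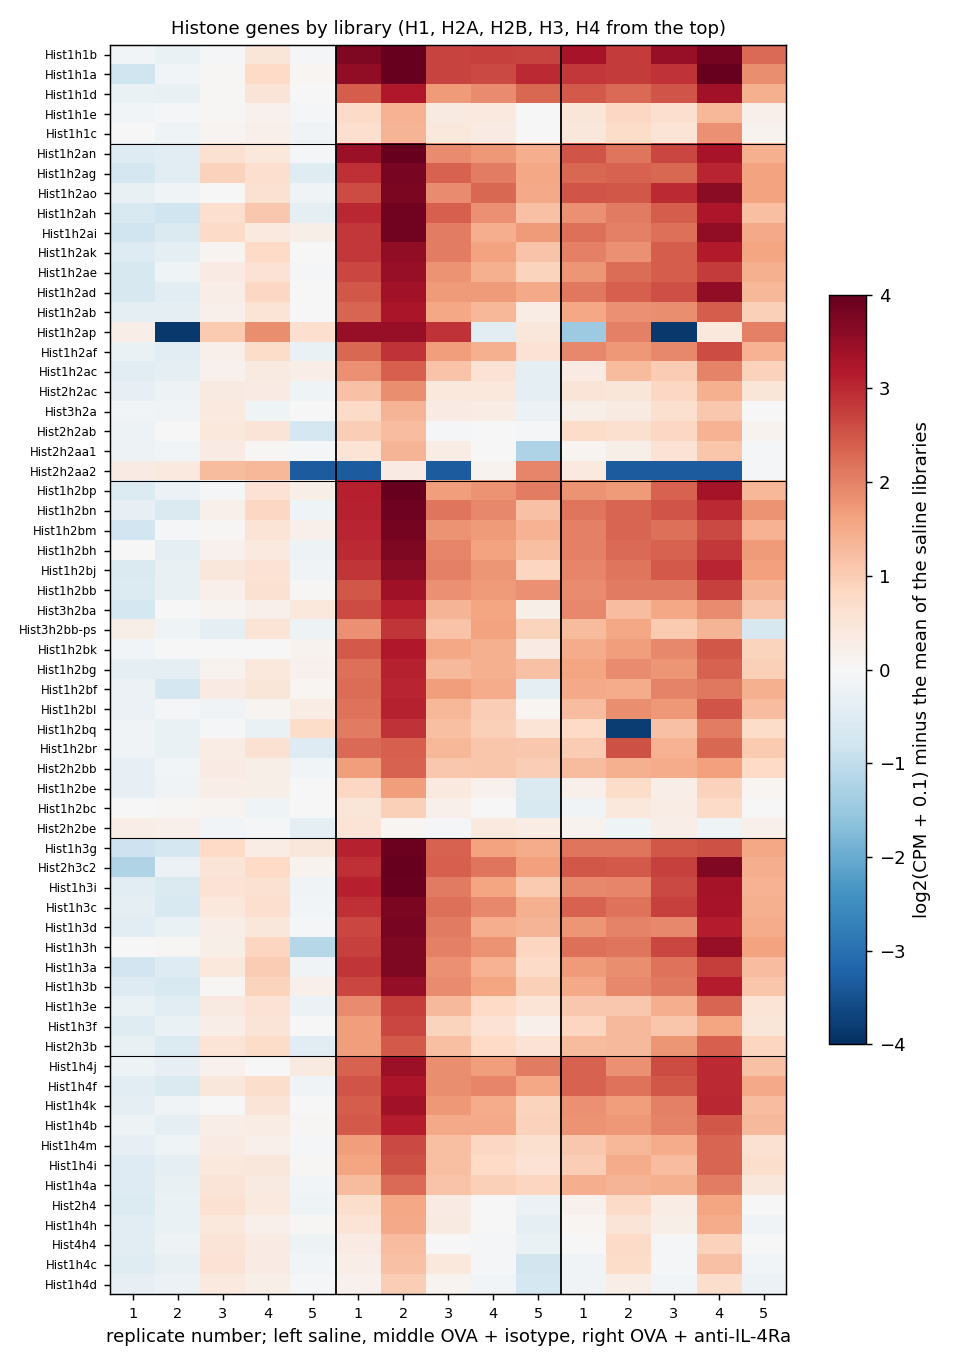
log2(CPM + 0.1) of each tested histone gene minus its mean over the 5 saline libraries (colour), with genes in rows ordered by class and by their change with OVA, and libraries in columns. Red columns mark OVA replicate 2 and anti-IL-4Ra replicate 4, in which most members are highest, and pale rows are members with little change, such as Hist2h2be and Hist1h4d.

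Linker histones showed both the largest and some of the smallest changes. Hist1h1b, which encodes the linker histone H1.5, was at 5.80, 5.19, 6.16, 8.82 and 6.11 CPM in the saline libraries. It was at 84.7, 130.3, 41.2, 42.5 and 41.8 CPM with OVA and at 62.5, 44.7, 71.6, 90.8 and 31.0 CPM with anti-IL-4Ra. Saline libraries lay far below all others, with no overlap. Its log2 change with OVA was 3.41 ± 0.37 (± SE, adjusted p = 2.05e-05) and with anti-IL-4Ra against saline 3.23 ± 0.37 (adjusted p = 7.99e-05).

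Hist1h1a, which encodes H1.1, behaved alike, at 3.09, 5.00, 5.55, 9.53 and 5.74 CPM with saline. It was at 64.5, 124, 35.9, 34.7 and 43.4 CPM with OVA and at 39.1, 38.1, 40.7, 89.1 and 20.1 CPM with anti-IL-4Ra. Again no ovalbumin library overlapped a saline library, and the change with OVA was 3.40 ± 0.45 (adjusted p = 8.72e-05). Neither gene shares a coding window with another, and their values were whole numbers in 15 (Hist1h1a) and 14 (Hist1h1b) libraries. Hist1h1d, which encodes H1.3, rose by 2.38 ± 0.34 with OVA (adjusted p = 0.000137), from 21.6 to 38.3 CPM in saline libraries to 86.8 to 248 CPM.

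Hist1h1c and Hist1h1e, which encode H1.2 and H1.4, had the highest CPM of the H1 genes. Hist1h1c was at 96.5, 86.5, 103, 111 and 87.3 CPM with saline. It was at 154, 249, 130.2, 121 and 96.4 CPM with OVA and at 133, 162, 142, 343 and 106 CPM with anti-IL-4Ra. OVA replicate 5 lay within the saline range. The change with OVA was 0.63 ± 0.29 and not called (adjusted p = 0.0979), although it was called without anti-IL-4Ra replicate 4 in the shared fit (0.59, adjusted p = 0.0345). The change with anti-IL-4Ra against saline, 0.87 ± 0.29, was called at an adjusted p of 0.0371, a call lost without any of 6 libraries (adjusted p up to 0.126). Hist1h1e rose by 0.66 ± 0.23 with OVA (adjusted p = 0.0346), and this call was lost without any of 8 libraries (log2 0.41 to 0.78).

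H2A genes rose in 12 of 17, against 19.3% of all genes called higher, with a median log2 change of 2.06. The largest was in Hist1h2an, at 0.879, 0.936, 2.05, 1.77 and 1.25 CPM with saline and at 15.3, 33.2, 5.10, 4.57 and 3.79 CPM with OVA. The anti-IL-4Ra libraries held 7.89, 6.05, 8.80, 13.7 and 3.64 CPM. The groups did not overlap with saline, and the change with OVA was 3.18 ± 0.59 (adjusted p = 0.000916). Hist1h2an shares 86.5% of its coding windows with other genes. Hist1h2ao rose by 2.63 ± 0.42 and Hist1h2ad by 2.26 ± 0.44, while Hist1h2ac rose by 1.39 ± 0.42, a call lost without OVA replicate 2 (0.99, adjusted p = 0.0675). Hist2h2ac rose by 0.88 ± 0.33 (adjusted p = 0.0451), and leaving out any of 9 libraries ended this call (log2 0.49 to 1.07).

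The H2A gene with the highest CPM did not pass the test. Hist2h2aa1 was at 76.9, 81.5, 110.5, 92.1 and 85.8 CPM with saline and at 128, 229, 109, 88.0 and 37.8 CPM with OVA. OVA replicate 5 was below every saline library and OVA replicates 1 and 2 above, so the groups overlapped (log2 0.41 ± 0.34, adjusted p = 0.362). Its copy Hist2h2aa2 was between 0 and 3.78 CPM in all 15 libraries. Hist3h2a had a log2 change of 0.59 ± 0.26 (adjusted p = 0.0848) and was called without OVA replicate 5 (0.74, adjusted p = 0.0316). Hist2h2ab at 0.49 ± 0.33 and Hist1h2ap at 1.96 ± 0.99 were not called either, the latter with values from 0 to 16.3 CPM.

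H2B genes rose in 15 of 18, against 19.3% of all genes called higher, again with a median of 2.06. Hist1h2bp had the largest change, 2.92 ± 0.51, followed by Hist1h2bn at 2.69 ± 0.44. Hist2h2bb, with a model that ends at the stop codon, was at 24.7, 28.7, 38.6, 36.2 and 28.3 CPM with saline. It was at 99.1, 158, 64.98, 66.9 and 60.9 CPM with OVA and at 73.8, 83.1, 86.7, 96.6 and 54.2 CPM with anti-IL-4Ra, and no library overlapped with saline. The change with OVA was 1.53 ± 0.25 (adjusted p = 0.00038).

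The 3 H2B genes not called were Hist1h2bc, Hist1h2be and Hist2h2be, all of them among the genes known to make polyadenylated transcripts. A link between such transcripts and the missing calls was not tested. Hist1h2be was at 31.6, 36.4, 48.2, 47.0 and 39.5 CPM with saline and at 71.5, 128, 52.4, 45.4 and 26.7 CPM with OVA. Replicates 4 and 5 of the OVA group lay within or below the saline range (log2 0.68 ± 0.31, adjusted p = 0.0979). Without OVA replicate 5 the gene was called (0.87, adjusted p = 0.0226). Hist1h2bc had a log2 change of 0.29 ± 0.23 (adjusted p = 0.322) and Hist2h2be one of 0.25 ± 0.16 (adjusted p = 0.239). Hist2h2be was at 6.60 to 10.4 CPM in saline, 8.21 to 12.5 CPM in OVA and 7.54 to 10.2 CPM in anti-IL-4Ra lungs, so its libraries overlapped in every pair of groups.

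All 11 tested H3 genes rose, against 19.3% of all genes called higher, with a median of 2.44. Hist2h3c2 was at 3.51, 6.93, 11.8, 14.2 and 9.11 CPM with saline. It was at 63.1, 130.5, 43.3, 36.6 and 26.03 CPM with OVA and at 45.9, 45.5, 55.5, 108 and 22.8 CPM with anti-IL-4Ra. No ovalbumin library overlapped a saline library, and the change with OVA was 2.73 ± 0.49 (adjusted p = 0.000739). Hist1h3g rose by 2.74 ± 0.47, Hist1h3i by 2.68 ± 0.52 and Hist1h3c by 2.63 ± 0.44. The smallest changes were in Hist1h3e at 1.65 ± 0.41, Hist1h3f at 1.47 ± 0.39 and Hist2h3b at 1.41 ± 0.38.

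H4 genes were divided, with 7 of 12 called higher, against 19.3% of all genes, and a median of 1.41. Hist1h4j rose by 2.45 ± 0.37, Hist1h4i by 1.48 ± 0.37 and Hist1h4a by 1.34 ± 0.31. Hist1h4d, which had the highest mean CPM of the class, was at 76.4, 82.6, 128, 113 and 93.0 CPM with saline. It was at 108, 191, 105, 90.4 and 58.8 CPM with OVA and at 88.1, 116, 90.4, 158 and 82.9 CPM with anti-IL-4Ra. Its groups overlapped, with OVA replicate 5 below and OVA replicate 2 above all saline libraries, and the log2 change was 0.17 ± 0.26 (adjusted p = 0.639). Hist1h4h had 0.53 ± 0.34 (adjusted p = 0.237), Hist2h4 0.55 ± 0.36 and Hist1h4c 0.29 ± 0.33, none of them called.

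Hist4h4, which lies alone on chromosome 6 and shares no coding window, was at 48.6, 57.7, 94.1, 82.7 and 57.7 CPM with saline. It was at 83.9, 155, 65.2, 63.7 and 54.5 CPM with OVA and at 64.9, 112, 62.3, 126 and 65.8 CPM with anti-IL-4Ra. Most OVA libraries lay within the saline range, and the log2 change was 0.31 ± 0.29 (adjusted p = 0.426). Its values were whole numbers in every library.

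**Figure D3:**
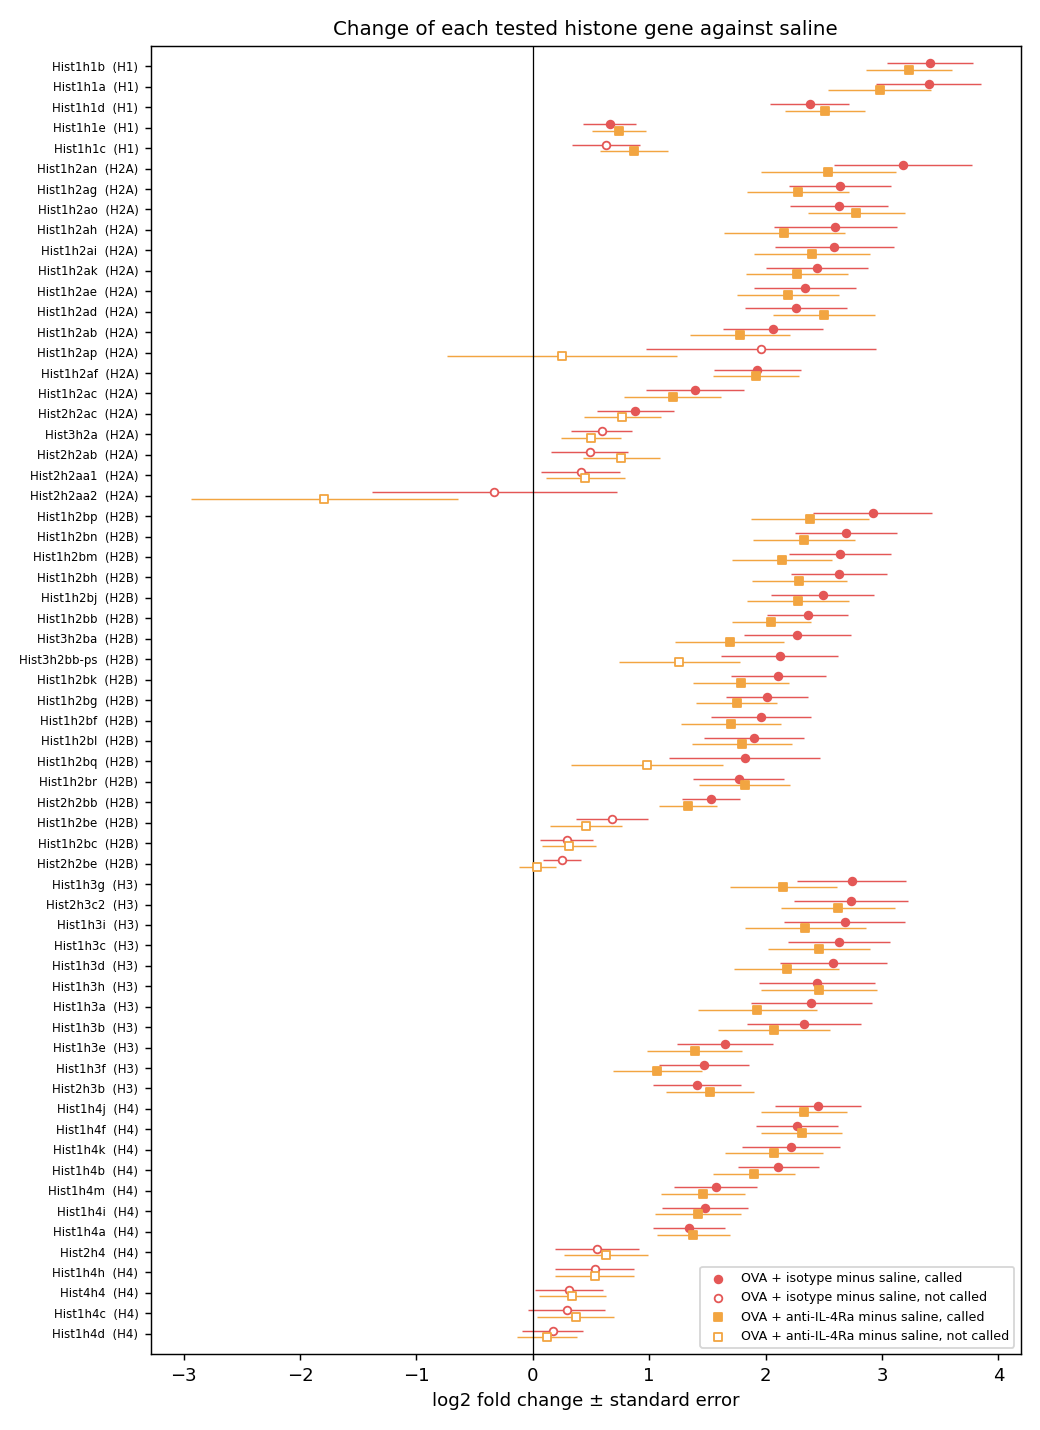
log2 fold change ± SE of the 63 tested histone genes (horizontal axis) for OVA against saline (circles) and OVA with anti-IL-4Ra against saline (squares), with filled symbols for called genes. The comparisons share the saline libraries. Values run from -0.33 to 3.41 for OVA, and all 11 H3 genes are filled for both.

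Members not called had longer annotated 3′ ends by median. Called members had a median of 87.0 bases of model after the stop codon, and those not called a median of 782 bases. Members not called also had the higher saline level, with a median of 41.1 CPM against 5.35 CPM in called members. Length and saline level were not separated. Among 21 tested members with over 300 bases after the stop codon, 12 were called and the median log2 change was 1.39. Among 30 with 1 to 300 bases, 26 were called with a median of 2.26, and among 11 whose model ends at the stop codon, 10 were called with a median of 2.44. Over all genes, 19.3% were called higher. The limit of 300 bases was chosen with these values in view, and no test was made. Long models were also found among strong changes, as in Hist1h1d with 4931 bases after the stop codon and Hist1h2bh with 1258 bases and a change of 2.63 ± 0.41. The transcript models behind the deposited counts are not named by the labels, and the counts do not show which 3′ ends were sequenced.

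**Figure D4:**
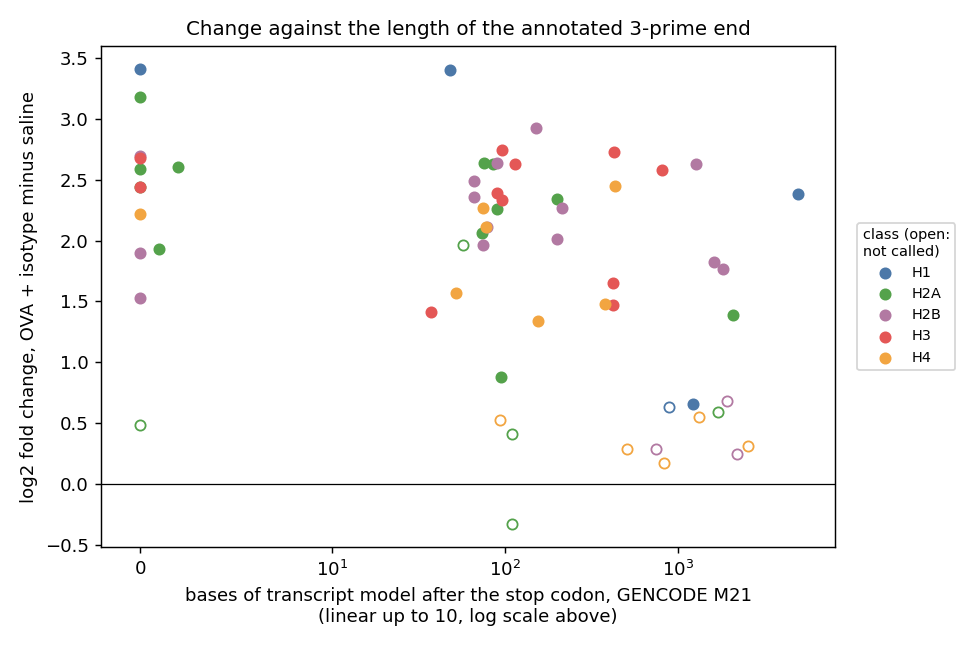
log2 fold change of OVA against saline (vertical axis) by the number of bases after the stop codon in the GENCODE M21 model (horizontal axis, linear to 10 and logarithmic above), with 1 point per tested histone gene with a coding model, coloured by class. Open points, the members not called, lie mostly to the right, around a median of 782 bases.

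Promoters were read from RefSeq (GRCm38.p6, C57BL/6J reference) for the 250 bases before the start, and 58 members matched. They were searched on both strands for CCAAT, the box bound by NF-Y, for TATAAA, and for AAACACA, the box known from H1 promoters. TATAAA and AAACACA can overlap by shared letters, and did not in the sequences shown. CCAAT stood in 82.8% of the members against 33.8% of 32851 promoters, in every H1, H2A and H2B promoter matched but in 3 of 11 H4 promoters. TATAAA stood in 44.8% against 12.4%, and AAACACA in 12.1% against 6.25%, with 5 of 6 H1 genes holding it. The sequences of both H1 genes with the largest change, and of Hist4h4, which was not called, are shown with these letters in capitals, where ATTGG is CCAAT on the other strand.
Hist1h1a, chr13:23763418-23763667, plus strand: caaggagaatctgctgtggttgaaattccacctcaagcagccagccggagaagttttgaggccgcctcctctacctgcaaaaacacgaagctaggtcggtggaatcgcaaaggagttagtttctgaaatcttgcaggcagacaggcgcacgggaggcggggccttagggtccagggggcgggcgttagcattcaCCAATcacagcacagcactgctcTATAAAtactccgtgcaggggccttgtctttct
Hist1h1b, chr13:21780626-21780875, minus strand: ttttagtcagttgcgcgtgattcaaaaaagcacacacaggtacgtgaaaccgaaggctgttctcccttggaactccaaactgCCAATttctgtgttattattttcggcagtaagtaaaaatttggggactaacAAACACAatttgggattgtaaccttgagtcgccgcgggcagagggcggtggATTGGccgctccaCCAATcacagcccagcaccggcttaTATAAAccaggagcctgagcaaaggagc
Hist4h4, chr6:136804432-136804681, minus strand: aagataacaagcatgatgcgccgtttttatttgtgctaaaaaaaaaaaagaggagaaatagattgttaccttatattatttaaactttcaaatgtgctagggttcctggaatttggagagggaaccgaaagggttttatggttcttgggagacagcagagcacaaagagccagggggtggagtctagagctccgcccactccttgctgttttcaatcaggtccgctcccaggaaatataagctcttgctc

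In both H1 promoters CCAAT stands before TATAAA near the start, and Hist4h4 holds none of the 3 motifs. Within H4, CCAAT stood in Hist1h4a, which was called with OVA, and in Hist1h4c and Hist1h4d, which were not. It was absent from Hist1h4b, Hist1h4f, Hist1h4i, Hist1h4j, Hist1h4k and Hist1h4m, which were called, and from Hist1h4h, which was not. Hist2h2aa1, also not called, holds it. A link between motifs and change was not tested. A match describes letters in the reference, and the mice were Balb.

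No histone gene was called between anti-IL-4Ra and OVA lungs. Of 63 tested members, 0 were called and 0 had an unadjusted p under 0.05 in edgeR, as in DESeq2 and limma voom. Over all genes, 0.302% were called in either direction (0.138% higher, 0.0943% higher by at least 2-fold, 0.163% lower) and 5.68% had an unadjusted p under 0.05. In 0 members did the libraries of these groups not overlap, against 0.509% of all genes higher and 0.66% lower. The members' median log2 change was -0.19, with 47 values below 0 and 16 above. The smallest p-values were 0.0895 in Hist3h2bb-ps (log2 -0.85 ± 0.47), 0.102 in Hist1h2ap (-1.71 ± 0.99) and 0.189 in Hist1h3g (-0.59 ± 0.43), all with an adjusted p of 1.00. These data leave room for sizeable effects: standard errors ran from 0.16 to 1.2, and for 28 of the 63 members the interval of 2 standard errors reached a 2-fold decrease. For Hist1h1b the change was -0.18 ± 0.33, with a sign that turned without OVA replicate 2.

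With anti-IL-4Ra against saline, 47 of 63 members were called higher and 0 lower, against 13.9% of all genes called higher, 12.7% lower and 26.6% in either direction. With the Rn45s share as a covariate 3 of these calls were left, while all genes called in either direction fell from 4236 to 373 (2.35%). By at least 2-fold 45 were called, against 7.38% of all genes, and 50 had an unadjusted p under 0.05, against 39.6%. Their median was 1.80. In 43 members the anti-IL-4Ra libraries all lay above saline, against 9.54% of all genes, and in 0 all below, against 10.3%. All 5 tested H1 and all 11 tested H3 genes were among those called, beside 11 of 17 H2A, 13 of 18 H2B and 7 of 12 H4 genes. This comparison shares its saline libraries with that of OVA. Hist1h3f (1.07 ± 0.38, adjusted p = 0.0497) and Hist1h2ac (1.2 ± 0.42, adjusted p = 0.0461) each lost the call without any of 10 libraries, and Hist1h3e (1.39 ± 0.41) without any of 4. Hist1h1e (0.74 ± 0.23) lost it without any of 5, and Hist3h2bb-ps (1.26 ± 0.52, adjusted p = 0.0812) gained one without OVA replicate 2 or anti-IL-4Ra replicate 5.

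Within a group most members were highest in the same library and lowest in another. How often all genes were highest or lowest in these libraries was not counted. Many members share coding windows, and RSEM divides such reads by an estimate, so their values are not independent. OVA replicate 2 held the highest value of its group in 60 of 65 members and OVA replicate 5 the lowest in 52. In the anti-IL-4Ra group, replicate 4 was highest in 57 and replicate 5 lowest in 53. In the saline group the spread was smaller, with replicate 4 highest in 40 and replicate 1 lowest in 37.

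The libraries also differed in Rn45s, the ribosomal RNA precursor, whose transcript has no poly(A) tail. It took 1.19 to 2.88% of saline libraries, 5.50, 8.47, 4.99, 4.31 and 12.4% of OVA libraries 1 to 5, and 9.80, 3.10, 9.79, 12.4 and 1.65% of anti-IL-4Ra libraries. OVA replicate 5 held the most Rn45s and the least histone RNA of its group, whereas anti-IL-4Ra replicate 4 held the most of both. Anti-IL-4Ra replicate 5 lay within the saline range of Rn45s and replicate 2 above it. Their histone sums were 1591 and 2476 CPM, beside 1388 CPM in the highest saline library. The relation of these sums to Rn45s was not tested.

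Other RNAs listed as made wholly or mainly without a poly(A) tail moved too. Whether their transcripts carried tails in these libraries was not measured. Of 8 tested, Rn45s included, 5 rose with OVA and 0 fell, against 19.3% and 17.8% of all genes, with a median log2 change of 0.74. Beside Rn45s (2.02 ± 0.53) these were Rnu12, a small nuclear RNA of the minor spliceosome (2.76 ± 0.84), Terc, the RNA of telomerase (1.48 ± 0.53), and the nuclear RNAs Malat1 (0.74 ± 0.27) and Neat1 (0.74 ± 0.23). Rmrp had a log2 change of -0.22 ± 0.32 (adjusted p = 0.612) and Rpph1 of 0.60 ± 0.50 (adjusted p = 0.364). With anti-IL-4Ra against saline 2 of the 8 rose, against 13.9% of all genes. Without Rn45s, the sum of these RNAs was 1.56-fold higher with OVA and 1.41-fold higher with anti-IL-4Ra than with saline, at 15355 to 30478 CPM with saline, 24326 to 44634 CPM with OVA and 26386 to 33913 CPM with anti-IL-4Ra. Most of this sum was Malat1. Its mean was 17210 CPM of 21799 with saline, 28790 of 34093 with OVA and 23750 of 30829 with anti-IL-4Ra. The sum therefore describes mainly that 1 gene. In it, both ovalbumin groups overlapped saline. OVA replicate 5 was highest of its group in this sum and anti-IL-4Ra replicate 4 lowest, the reverse of their order in histone RNA. The part of these RNAs in the histone result was not tested beyond the Rn45s covariate.

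With the Rn45s share as a covariate, the median log2 change of the members was 1.53 with OVA and 1.29 with anti-IL-4Ra against saline, and 60 and 61 of 63 values were above 0. An unadjusted p under 0.05 was left in 39 and 33 members, while 5 and 3 stayed called, against 4.73% and 2.35% of all genes. Hist1h1b was called in both, at 2.56 ± 0.42 (adjusted p = 0.00415) and 2.39 ± 0.39 (adjusted p = 0.00494), as were Hist1h1a and Hist1h1d. No OVA library and 1 anti-IL-4Ra library lay within the saline range of Rn45s, so group and Rn45s share cannot be fully told apart.

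Genes of DNA replication offer a second view of S phase, since most of their mRNAs carry poly(A) tails. Of 23 such genes, 22 rose with OVA and 0 fell, against 19.3% of all genes called higher and 17.8% lower, with a median log2 change of 1.52 beside 0.02 over all genes. Rrm2, a subunit of ribonucleotide reductase, rose by 3.09 ± 0.31. Their sum ranged between 440.2 and 656 CPM in saline lungs, between 781 and 1465 CPM in OVA lungs and between 795 and 1067 CPM in anti-IL-4Ra lungs, with no overlap with saline. The ratio of the histone sum to this sum was 2.07 to 2.31 with saline. It was 2.49, 3.67, 2.67, 2.03 and 1.41 with OVA and 2.06, 2.72, 2.36, 5.44 and 1.96 with anti-IL-4Ra. The ratio thus lay both above and below the saline range in each ovalbumin group, and anti-IL-4Ra replicate 4 joined the highest histone sum of its group to its lowest replication sum. Tyms, the gene of this list with the highest mean CPM, was not called with OVA (0.51 ± 0.23, adjusted p = 0.0926). Its mean was 224 CPM of 528 with saline, 319 of 1080 with OVA and 257 of 925 with anti-IL-4Ra. The replication sum and the ratio therefore depend in large part on that 1 gene. Of 15 mitosis genes 15 rose (median 2.67), against the same background, among them Mki67, a marker of cycling cells, by 3.08 ± 0.32.

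**Figure D5:**
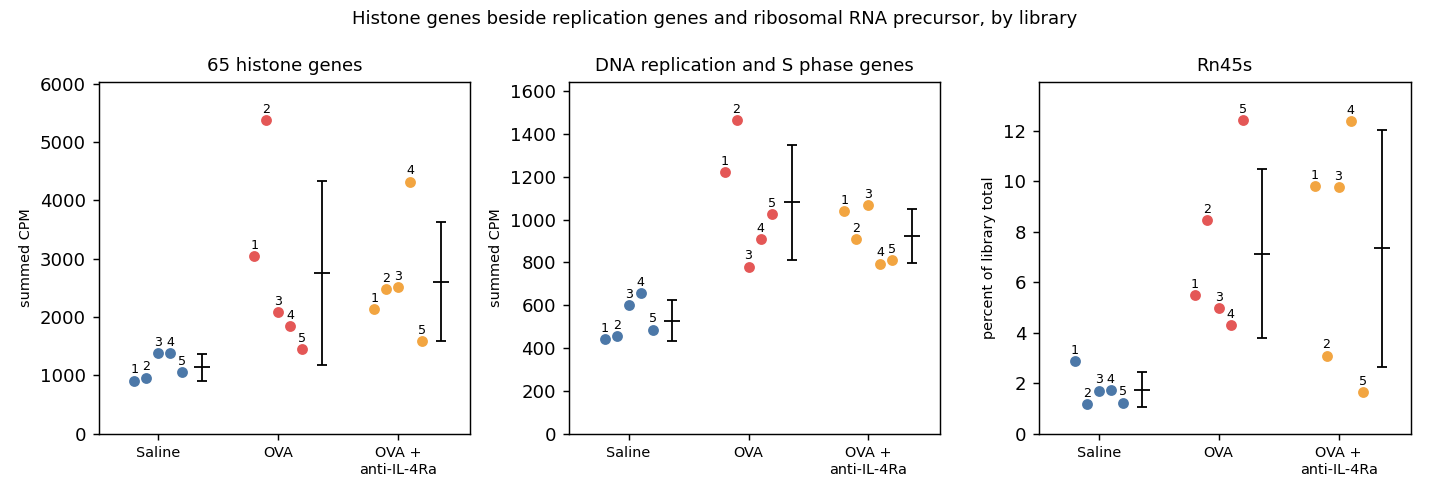
Summed CPM of the 65 histone genes (left), summed CPM of DNA replication genes (middle) and the percent of the library total on Rn45s (right), with points as libraries numbered by replicate and black marks as mean ± SD of 5 libraries. Anti-IL-4Ra replicate 4 is highest of its group on the left (4321 CPM) and right (12.4%) and lowest in the middle (795 CPM).

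Genes that serve histone mRNAs and histones were called in either direction about as often as all genes (37.1%), but their calls were mostly higher. Over all genes, 19.3% were called higher with OVA and 17.8% lower. Of 15 tested genes of 3′ end processing and histone gene transcription, 5 rose and 1 fell. Slbp, which encodes the stem-loop binding protein, rose by 0.83 ± 0.14 (adjusted p = 0.00059), and Zfp473, a zinc finger protein of the U7 processing machinery, by 1.82 ± 0.43. Eri1, an exonuclease that trims histone mRNA ends, rose by 0.73 ± 0.16. Npat, the coactivator of histone genes, was at 37.0 ± 4.15 CPM with saline and 36.4 ± 5.48 CPM with OVA (log2 -0.02 ± 0.15, adjusted p = 0.917). Of 15 chaperone and chromatin assembly genes 6 rose and 0 fell, a count in either direction near that background. Asf1b, a carrier of H3 and H4, rose by 2.42 ± 0.29, Chaf1a, a subunit of the assembly factor CAF-1, by 1.73 ± 0.25, and Nasp, another histone carrier, by 1.23 ± 0.17.

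Many replacement histones are made throughout the cell cycle from polyadenylated mRNAs. Of 11 genes 3 rose and 2 fell with OVA, near the 19.3% of all genes called higher and 17.8% lower, with a median log2 change of -0.17. H2afx, which is phosphorylated at DNA breaks and also makes a stem-loop mRNA, rose by 2.05 ± 0.34. Cenpa, the centromere H3, rose by 1.75 ± 0.24 and H2afz by 0.75 ± 0.14. H1f0, a linker histone of resting cells, fell by 0.43 on the log2 scale (adjusted p = 0.0244) and H2afy2 fell by 0.70. H3f3b, the most abundant by CPM, had -0.22 ± 0.18 (adjusted p = 0.36). With anti-IL-4Ra against OVA, 0 genes of these lists were called by edgeR.

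Markers of several cell types moved with the same comparison. With OVA, 5 of 6 T cell, 6 of 6 B cell and 4 of 6 plasma cell markers rose, against 19.3% of all genes called higher. Sdc1, the syndecan of plasma cells that epithelium also carries, fell by 0.68 on the log2 scale (adjusted p = 0.00317). Of endothelial and alveolar epithelial markers, 4 of 5 and 5 of 5 fell, against 17.8% of all genes called lower. So did 5 of 5 red blood cell and 3 of 4 club and ciliated cell markers. Of macrophage markers 3 of 5 rose and 0 fell. Of 6 neutrophil and eosinophil markers 3 rose and 3 fell. Those that rose were the eosinophil markers Ccr3, Epx and Prg2, and those that fell the neutrophil markers S100a8, S100a9 and Csf3r. Epx and Prg2 were near 0 in saline lungs, at means of 0.031 and 0.18 CPM. Of 5 cardiac muscle markers 0 were called. Summed B cell markers reached at most 185 CPM in saline lungs (lowest 95.4), and spanned 252.2 to 1145 CPM in OVA and 188 to 988 CPM in anti-IL-4Ra lungs, being highest in OVA replicate 2 and anti-IL-4Ra replicate 4, the libraries with the highest histone sums. Summed T cell markers, at 34.6 to 64.8, 76.6 to 248 and 88.1 to 192 CPM, were highest in the same libraries. Summed plasma cell markers were at 380.3 to 516, 880.1 to 2010.2 and 540.8 to 3849 CPM, and were also highest there. Summed macrophage markers were highest in other libraries, OVA replicate 4 (821 CPM) and anti-IL-4Ra replicate 2 (622 CPM). No T, B or plasma cell marker tested was at 0 in any library. Their part in the histone result was not tested.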

How the data were processed

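RNA was sequenced from 15 whole lungs, and the authors deposited expected counts per gene symbol without normalization. RSEM 1.2.15 and Bowtie2 2.1.0 and the human build hg38 are named in the submitters' processing notes, although the symbols are those of mouse genes. No source used here names the annotation.

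Expected counts were rounded to whole numbers, filtered with filterByExpr, scaled by TMM and tested in a single quasi-likelihood fit over 15 libraries in edgeR 4.0.16 (R 4.3.3), with two-sided p-values adjusted by Benjamini-Hochberg over 15905 genes. Alternatives used DESeq2 1.42.0, limma voom 3.58.1, other filters and scalings, a replicate block, the Rn45s share as a covariate, merged copies and each library left out. The pipeline was tested on simulated data. Transcript models are GENCODE M21, and promoters are RefSeq, GRCm38.p6. Replicate pairs differed beyond sampling noise (chi-square per degree of freedom 10.0 to 218.6 over 30 pairs). Replicates are labelled biological.

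Members, gene lists and the rule for named genes were chosen with earlier results of these data known. By that rule, named members are the 8 largest and 8 smallest changes among those called in each comparison, the 2 of highest mean CPM per class, the 3 of smallest p between anti-IL-4Ra and OVA, genes with known polyadenylated transcripts and those next to the sum of 30. Other members named were picked after their values were seen. No sums or ratios over members were tested.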

Additional observations from a re-analysis of the deposited data

Results flagged for a closer look

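Of 117 groups of 5 values tested over the named members and the summed levels of the family and its classes, 5 had a single library far from the other 4 (gap over range above 0.71), and chance flags about 1 group in 20. Hist1h1b was at 8.82 CPM and Hist1h2ao at 6.82 CPM in saline replicate 4, each above the other saline libraries. Hist1h4a was at 126 CPM in OVA replicate 2. Hist1h1c was at 343 CPM and Hist1h4h at 215 CPM in anti-IL-4Ra replicate 4. The last 2 libraries are those with the highest histone sums of their groups.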

How the results depend on the processing

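With the Rn45s share as a covariate, histone members called higher fell to 5 with OVA and 3 with anti-IL-4Ra against saline, and all genes called to 752 and 373; the cause was not tested. DESeq2 called 132 genes between anti-IL-4Ra and OVA, and the fit with a replicate block 26. Replicate numbers did not pair the animals (correlations of same-numbered libraries from -0.55 to 0.35), and with the replicate block 46 and 44 members were called higher against saline. Without the highest member of each class the saline sum was 815 CPM. Leaving out each library gave 45 to 51 members called higher with OVA, 42 to 49 with anti-IL-4Ra against saline and 0 to 0 in every other member count. All genes called ranged from 4776 to 6619, 32 to 61 and 2844 to 4679, and mean sums from 1078 to 1198 (saline), 2106 to 3088 (OVA) and 2180 to 2863 CPM (anti-IL-4Ra).

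Signs turned in values that passed no test. Between anti-IL-4Ra and OVA these were Hist1h1a (0.03) and Hist1h1b (0.19) without OVA replicate 2, with ranges over left-out libraries of -0.79 to 0.03 and -0.36 to 0.19. Against saline they were Hist1h2ap with anti-IL-4Ra (-0.04 with the replicate block, -0.10 without saline replicate 2, -0.23 and -0.21 without anti-IL-4Ra replicates 2 and 5, up to 0.76) and Hist1h4d (-0.01 with OVA and -0.05 with anti-IL-4Ra under the covariate, -0.12 without OVA replicate 2 and up to 0.33, -0.08 without anti-IL-4Ra replicate 4 and up to 0.23). Hist2h2be turned with anti-IL-4Ra without saline replicate 5 (-0.04) or anti-IL-4Ra replicate 3 (-0.01), and reached 0.12 at most. Merging copies, chosen after the data were seen, left 40 and 39 rows called higher, beside 19.3% and 13.9% of all genes without merging. Expected counts divide reads among copies, so a single row with shared windows is less certain than a sum of copies.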
